A study of Arabidopsis thaliana with 12 samples.

Results

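Argonaute proteins hold small RNAs and use them to find matching transcripts. In plants ARGONAUTE1 (AGO1) carries most microRNAs (miRNAs), and the miRNA guides it to cut the target transcript or to block its translation. A miRNA is cut from a hairpin precursor as a duplex of a 5p and a 3p arm; usually 1 arm, the guide, stays in AGO1, while the other, the passenger, is discarded. Many miRNAs move between root cell layers, so the set held by AGO1 in a layer can differ from the set made there.

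The data described here are the AGO1-bound miRNAs of Arabidopsis thaliana (ecotype Col-0) metaxylem and procambium, in the ktn1-20 mutant (ktn1) and in wild type (WT). KTN1 encodes the catalytic subunit of katanin, a microtubule-severing enzyme. A GFP-AGO1 fusion under the ACL5 promoter, which per the design text marks metaxylem and procambia, was immunoprecipitated from roots of 9-day-old plants. All libraries titled ACL5-GFP-AGO1 were taken: 2 ktn1 and 2 WT libraries, of 12 in the series. Both groups carry the transgene, and the labels do not state whether replicates came from separate plant pools, so p-values measure only the spread between these libraries. The other libraries are 4 from the EN7 promoter line (endodermis), used here for a shared estimate of spread and for tests of a difference between lines, and 4 from total seedling RNA, not analysed here. The tables hold mature miRNAs only, so neither the cell layer, by protein-coding marker genes, nor the loss of KTN1 could be checked in them. In such bulk libraries fewer cells of a type and less RNA per cell cannot be told apart.

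The 4 ACL5 tables list the same 185 entries, in RPM (reads per 1000000 reads). An entry is 1 mature miRNA, or several names with 1 mature sequence; all 185 entries matched precursor loci in the RefSeq gene table of TAIR10.1. They belong to 110 families, counted by miRNA number with miR165 and miR166 as 1 family. Listed miRNAs took up 2953763 and 3008256 reads in the ktn1 libraries and 2041553 and 1454284 reads in the WT libraries, read from the smallest value in each table. At least 3 reads, the number needed to tell a miRNA from 0, were present for 158 and 158 entries in ktn1 and for 153 and 146 entries in WT; 124 entries reached this in all 4 libraries. The 86 entries and 55 families with at least 10 RPM in at least 2 of the 8 AGO1 libraries were tested with limma, whose p-values were adjusted by the Benjamini-Hochberg method over all entries or all families tested.

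In the ACL5 line the ktn1 replicates differed from each other more than the WT replicates did. Between the ktn1 replicates 37 of 86 entries differed by more than a factor of 2, against 7 of 86 between the WT replicates, and 11 against 0 differed by more than a factor of 4. The median absolute difference on the log2(RPM + 1) scale was 0.88 between the ktn1 libraries and 0.38 between the WT libraries. The 7 entries that were more than 4-fold higher in ktn1 replicate 1 included miR396a-3p (1114 against 36.3 RPM in replicate 2) and miR408-5p (1215 against 97.5 RPM). The 4 that were more than 4-fold higher in replicate 2 included miR827 (475 against 21.7 RPM in replicate 1) and miR173-5p (923 against 51.0 RPM). In the EN7 line it was the other way round, with 30 entries more than 2-fold and 6 more than 4-fold apart between ktn1 replicates, against 40 and 18 between WT replicates, and this spread enters the shared fit. Where leaving out 1 ktn1 library of ACL5 moved a change by more than 1.5 times, the values without each are given beside it.

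**Figure D1:**
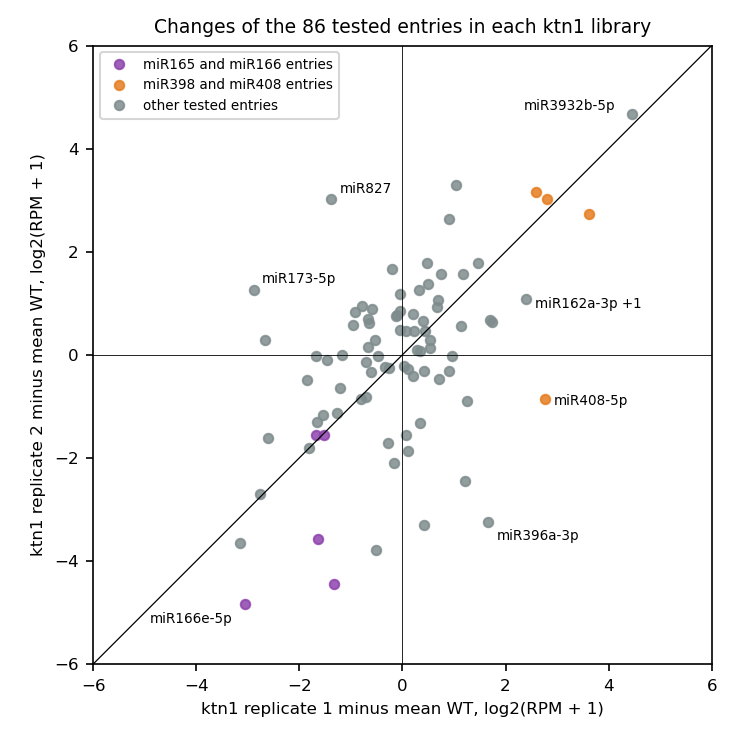
Change of each of the 86 tested entries in ktn1 replicate 1 (horizontal axis) and ktn1 replicate 2 (vertical axis), each minus the mean of the 2 WT libraries on the log2(RPM + 1) scale; 1 point is 1 entry, coloured by family, and the diagonal marks equal values. The miR165 and miR166 guide strands, miR3932b-5p and the 3p entries of miR398 and miR408 lie away from 0 in both libraries, whereas miR827, miR173-5p, miR396a-3p and miR408-5p lie on opposite sides in the 2 libraries.

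In both genotypes AGO1 in the ACL5 domain held a few very abundant miRNAs. The 10 most abundant entries made up 91.8% and 91.6% of listed miRNA RPM in the ktn1 libraries and 91.1% and 89.8% in the WT libraries. miR159a, which targets GAMYB-like transcription factors, was the top entry in every ACL5 library, at 92800 and 78497 RPM in ktn1 and 70089 and 59011 RPM in WT. The families miR158, miR159 and miR319 together made up 60.8% and 69.7% in ktn1 and 65.7% and 62.7% in WT. The order below miR159 was not the same. In both WT libraries the second family was miR165/miR166; in both ktn1 libraries miR158, miR162 and miR398 ranked above it.

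Summed over all entries, miRNA RPM was 324722 and 321167 in ktn1 and 294049 and 250534 in WT. The ktn1 libraries were both higher, with a log2 ratio of 0.25 and an exact two-sided permutation p of 0.3333, the smallest that 2 libraries against 2 can give. Leaving out WT replicate 1 gave 0.37 and leaving out WT replicate 2 gave 0.14. Without miR165 and miR166 the log2 ratio was 0.44, and without the most abundant entry 0.19, with the genotypes apart in both. Without miR162 and miR398, an alternative chosen after the data were seen that takes away families high in ktn1, the sums overlapped between genotypes (256889 and 277418 RPM in ktn1, 282958 and 237362 RPM in WT; log2 ratio 0.038, exact permutation p = 1.0).

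Of the 86 tested entries, 4 (4.65%) passed an adjusted p of 0.05 in limma: 1 rose in ktn1 (1.16%) and 3 fell (3.49%). The 3 that fell all belong to miR165/miR166, and the 1 that rose is miR3932b-5p, which reached 10 RPM only in ktn1 libraries. Of the 55 families 2 passed (3.64%), miR3932 higher (1.82%) and miR165/miR166 lower (1.82%), and 6 of 52 (11.5%) did with the 4 ACL5 libraries alone. The number of entries rests on single libraries. It was 1 without WT replicate 1 and 1 without WT replicate 2, 3 without ktn1 replicate 2 and 6 without ktn1 replicate 1. It was 8 and 9 without EN7 WT replicate 1 and 2, which enter only through the shared spread, and 7 of 81 (8.64%) with the 4 ACL5 libraries alone (4 higher, 3 lower). Rescaling the libraries to equal sums without miR165 and miR166 moved the median change of all entries from -0.0019 to -0.42 and gave 1 higher and 6 lower entries; rescaling to equal medians moved it to 0.40 and gave 1 higher and 1 lower; rescaling to equal miRNA sums moved it to -0.23 with 1 higher and 3 lower. Changes smaller than these shifts have no fixed direction. With the 4 ACL5 libraries alone the 3 lower entries were the miR166 guide, miR166e-5p and miR168b-3p, without the miR165 guide. There miR168b-3p had a log2 change of -3.40 (adjusted p = 0.016, limma), but in the shared fit its adjusted p was 0.216. The 4 higher entries there were miR3932b-5p, miR398b-3p/miR398c-3p, miR408-3p and miR398a-3p, the last of which is not counted below as a separate change.

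Many more entries had both ktn1 libraries on 1 side of both WT libraries. This held for 92 of the 185 listed entries (49.7%), 48 above (25.9%) and 44 below (23.8%), and for 41 of the 86 tested ones (47.7%), 21 above (24.4%) and 20 below (23.3%). With equal sums without miR165 and miR166 the 21 and 20 became 14 and 33, with equal medians 35 and 13, and with equal miRNA sums 20 and 29. With ktn1 replicate 1 left out they were 38 and 34, with ktn1 replicate 2 left out 33 and 37, with WT replicate 1 left out 32 and 22, and with WT replicate 2 left out 24 and 34. Leaving out a library can only add entries to these counts, as 1 library is then set against 2. By family, 60 of 110 had both ktn1 libraries on 1 side of both WT libraries (54.5%), with 34 above (30.9%) and 26 below (23.6%). These shares are the background against which the groups below are read. Separation of this kind describes the libraries and is not a test. For a single entry, 2 libraries against 2 can give no exact permutation p under 0.3333.

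**Figure D2:**
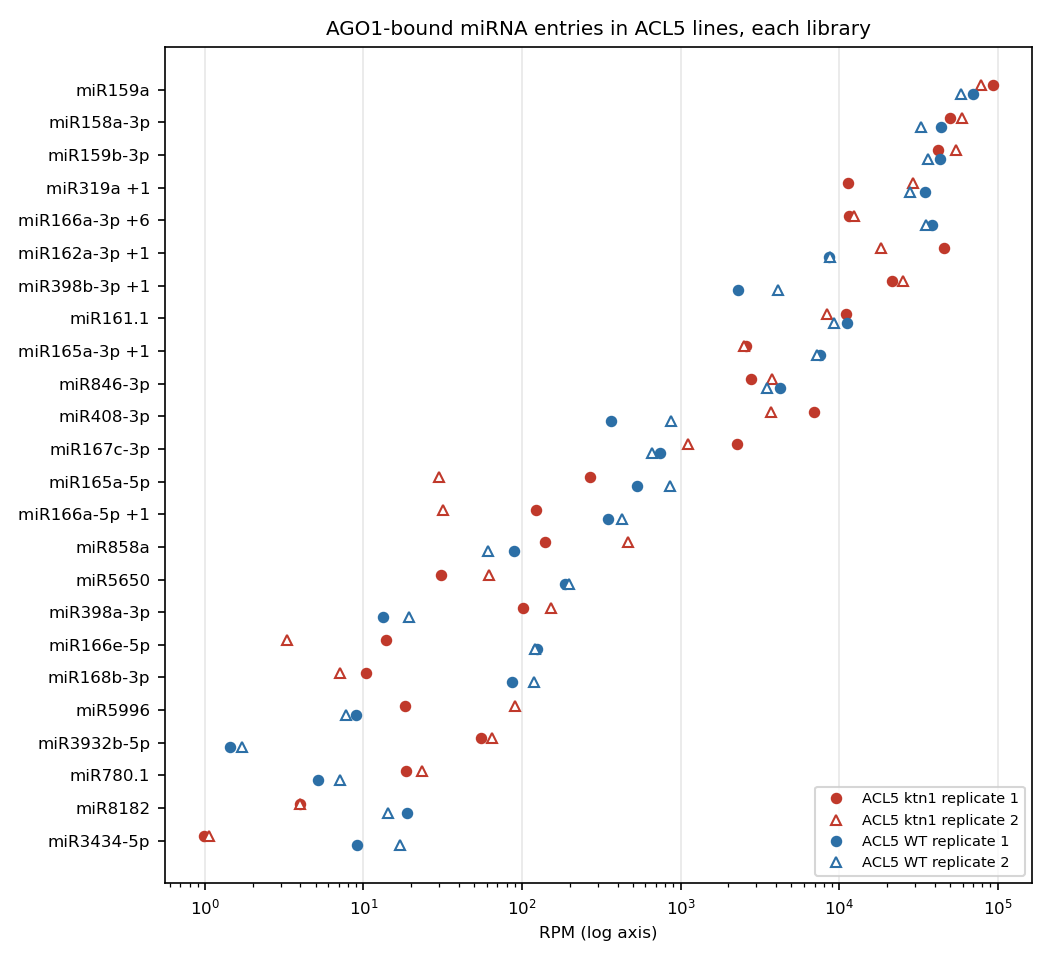
RPM (log axis) in each of the 4 ACL5 libraries for the 24 entries named by rule: the most abundant ones, those past the test, the tested entries with the largest changes and no overlap between genotypes, and the leading entry of each functional group; "+1" and the like give the number of further names that share the entry. ktn1 lies right of WT for miR398b-3p, miR408-3p, miR162a-3p and miR3932b-5p and left of it for the 5 entries of miR165 and miR166, while miR161.1 and miR846-3p overlap.

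Outside miR165/miR166, the copper-responsive miRNAs stood apart together. When copper is scarce, plants make miR397, miR398, miR408 and miR857, which repress transcripts of copper proteins and so spare the metal for the photosynthetic electron carrier plastocyanin. All 4 families had both ktn1 libraries above both WT libraries, where 30.9% of all listed families did. Neither of the 2 tested, miR398 and miR408, passed the limma test that pools the spread of both lines, though both had an unadjusted p under 0.05. The 4 copper families are part of the 8 listed families in the wider group of nutrient miRNAs. That wider list was chosen with earlier results of these data known, and the copper families were taken out of it. Their share above WT is therefore a description and not a test.

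miR398b-3p/miR398c-3p (loci AT5G14545 and AT5G14565), which targets copper superoxide dismutases, had 21548 and 25094 RPM in ktn1, against 2313 and 4123 RPM in WT. The lowest ktn1 value was above the highest WT value, and the means differed 7.25-fold. The log2 change was 2.91 (SE 0.93, adjusted p = 0.173, limma) and 2.80 without ktn1 replicate 2. With the 4 ACL5 libraries alone the adjusted p was 0.0082 at the same change. Of 19 alternative settings, this entry passed the threshold in 3, that one included, and stayed short of it in 16. Fits without EN7 WT replicate 1 or 2 are also among the 3. The entry miR398a-3p, named for another locus (AT2G03445), had 101 and 152 RPM in ktn1, against 13.3 and 19.5 RPM in WT. Its log2 change was 2.87 (SE 1.25, adjusted p = 0.281, limma). Its RPM was 0.470% and 0.604% of that of miR398b-3p/miR398c-3p in ktn1 and 0.573% and 0.472% in WT, and as the sharing of reads between near-identical miRNAs is not given, it is not counted as a separate change.

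miR408-3p (AT2G47015), which targets plantacyanin and laccases, had 6918 and 3710 RPM in ktn1, against 362 and 868 RPM in WT. The groups did not overlap, and the log2 change was 3.17 (SE 0.84, adjusted p = 0.113, limma), or 3.62 without ktn1 replicate 2. In the ACL5 libraries alone the adjusted p was 0.026. Of 19 alternative settings, miR408-3p passed the threshold in 3, that one included, and stayed short of it in 16.

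miR397, which targets laccases, and miR857, which targets a laccase of secondary growth, were rare. The summed miR397 entries had 9.12 and 20.2 RPM in ktn1, against 0.864 and 1.21 RPM in WT. Within them miR397a had 18 and 30 reads in ktn1 and 0 reads in either WT library, and was at least 5.46-fold higher in ktn1, computed against the mean of the per-library floors of 3 reads. miR857 had 7.92 and 17.2 RPM in ktn1, against 0.432 and 3.10 RPM in WT, where the lower value is 3 reads. Neither family reached the level needed for the test.

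As families, miR398 made up 6.67% and 7.86% of listed miRNA RPM in the ktn1 libraries and 0.793% and 1.66% in the WT libraries. The family changes, 2.91 for miR398 (SE 0.89, adjusted p = 0.135) and 2.91 for miR408 (SE 0.86, adjusted p = 0.135, limma), kept their sign under each of the 3 rescalings. With the ACL5 libraries alone the adjusted p was 0.00038 for miR398 and 0.0083 for miR408. Of 19 alternative settings, that one included, the miR398 family passed the threshold in 4 and stayed short of it in 15. For the miR408 family these numbers were 3 and 16.

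The same families were also higher in ktn1 in the EN7 line. miR398 there had 6333 and 8067 RPM in ktn1, against 378 and 3341 RPM in WT. miR408 had 1017 and 647 RPM in ktn1 EN7 libraries, against 149 and 487 RPM in WT EN7 libraries. The difference between lines was 0.25 for miR398b-3p/miR398c-3p and 1.28 for miR408-3p, each with an adjusted p of 0.970 (limma interaction), so neither can be called particular to the ACL5 domain.

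**Figure D3:**
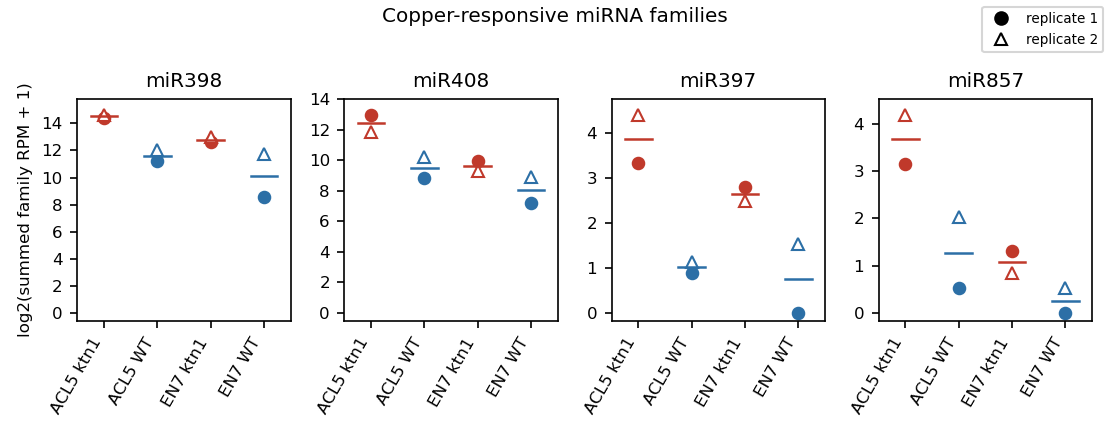
Level of 4 copper-responsive miRNA families as log2 of the summed family RPM plus 1 (vertical axes, which differ between panels) in the ktn1 and WT libraries of the ACL5 and EN7 lines; points are libraries (filled circle, replicate 1; open triangle, replicate 2) and bars are the mean of 2. In ACL5 both ktn1 points lie above both WT points in all 4 panels.

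Summed by family, the other nutrient miRNAs did not separate the genotypes. miR395, which responds to sulfate shortage and targets ATP sulfurylases, had 5011 and 2243 RPM in ktn1, against 2080 and 3427 RPM in WT. Its rarer entry miR395a/miR395d/miR395e did lie above WT, at 346 and 232 RPM in ktn1 and 153 and 162 RPM in WT. The abundant entry miR395b/miR395c/miR395f overlapped. miR399, a phosphate starvation signal that targets the PHO2 ubiquitin-conjugating enzyme, had 211 and 547 RPM in ktn1, against 332 and 345 RPM in WT. miR827, which targets the phosphate regulator NLA, had 21.7 and 475 RPM in ktn1, against 77.6 and 43.1 RPM in WT. One ktn1 library was thus above and the other below both WT libraries for miR399 and miR827, and their log2 changes were 0.0077 (SE 0.89, adjusted p = 0.993, limma) and 0.82 (SE 1.38, adjusted p = 0.798, limma). Without ktn1 replicate 1 they were 0.69 and 3.02, and without replicate 2 they were -0.68 and -1.38. Across the 5 nutrient families tested the median log2 change was 0.82, against 0.054 over all 55 families, and 0 passed limma (2 at an unadjusted p under 0.05, those of copper).

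Among miRNAs that act on the silencing machinery itself, miR162 stood out. miR162a-3p/miR162b-3p (AT5G08185 and AT5G23065), which targets the miRNA-processing enzyme DCL1, had 45918 and 18343 RPM in ktn1, against 8566 and 8817 RPM in WT. Both ktn1 libraries were above both WT libraries, but the ktn1 replicates lay far apart, whereas the WT replicates were nearly equal. The log2 change was 1.74 (SE 0.58, adjusted p = 0.173, limma), 1.078 without ktn1 replicate 1 and 2.40 without ktn1 replicate 2. The summed family passed with the 4 ACL5 libraries alone (1.72, adjusted p = 0.012) and not in the shared fit (adjusted p = 0.148; 1.06 without ktn1 replicate 1 and 2.38 without replicate 2). The miR162 change in EN7 was -0.98, and the difference between lines, 2.72, had an adjusted p of 0.262 (limma interaction).

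miR168, which targets AGO1, overlapped between genotypes, at 715 and 361 RPM in ktn1 and 528 and 423 RPM in WT. miR403, which targets AGO2, had 3127 and 3723 RPM in ktn1, against 2749 and 2679 RPM in WT; its log2 change of 0.33 (adjusted p = 0.845, limma; 0.46 without ktn1 replicate 1 and 0.20 without replicate 2) turned to -0.12 when libraries were set to equal sums without miR165 and miR166. miR173, which starts phased siRNAs from TAS1 and TAS2, had 51.3 and 923 RPM in ktn1 and 594.9 and 248.1 RPM in WT, the widest gap between ktn1 replicates in this group. Of the 6 listed families in the group 3 lay above WT and 3 overlapped, where 30.9% of all listed families lay above. Of the 5 tested 0 passed limma (1 at an unadjusted p under 0.05, miR162), and the median log2 change was 0.10.

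The family of miR165/miR166, which targets HD-ZIP III transcription factors that pattern the stele, was the only one of 55 to fall past the threshold. All 5 of its entries had both ktn1 libraries below both WT libraries. The guide entries miR166a-3p to miR166g fell to 11490 and 12461 RPM in ktn1, against 38256 and 35381 RPM in WT, and miR165a-3p/miR165b fell to 2581 and 2527 RPM in ktn1, against 7569 and 7234 RPM in WT. Their log2 changes were -1.62 (adjusted p = 0.0014) and -1.53 (adjusted p = 0.0084, limma). With the 4 ACL5 libraries alone the miR166 guide passed (adjusted p = 0.0094, limma). The miR165 guide did not (adjusted p = 0.062, limma), at the same change. Of 19 alternative settings, the miR165 guide fell short of the threshold in 5. The miR165 guide no longer passed without WT replicate 1 (adjusted p = 0.083) or WT replicate 2 (0.069). Their 3 passenger entries lay lower too, with miR166e-5p at 13.9 and 3.31 RPM in ktn1 and 123 and 121 RPM in WT (log2 change -3.94, adjusted p = 0.014, limma; 0.154 and 0.149 without WT replicate 1 and 2).

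Among regulators of developmental transcription factors, 12 of 14 families on the list were present as families, and all 12 were tested with limma, with 0 past the threshold and 0 at an unadjusted p under 0.05. Both ktn1 libraries were above both WT libraries for 6 families and below them for 2, where 32.7% of tested families lay above and 21.8% below. The median log2 change was 0.36.

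Those above included miR858, which targets MYB factors of phenylpropanoid metabolism, with 140 and 468 RPM in ktn1 against 90.5 and 62.5 RPM in WT (log2 change 1.76, SE 0.95, adjusted p = 0.449, limma; 2.62 without ktn1 replicate 1 and 0.89 without replicate 2). miR394, which targets the F-box gene LCR and acts as a mobile signal in the shoot meristem, had 181 and 322 RPM in ktn1, against 109 and 106 RPM in WT (log2 change 1.16, SE 0.80, adjusted p = 0.611, limma; 1.58 without ktn1 replicate 1 and 0.74 without replicate 2). miR172, which targets AP2-like factors, had 17.7 and 45.6 RPM in ktn1, against 16.4 and 12.9 RPM in WT, so that ktn1 replicate 1 lay close to WT.

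Those below were miR156 and miR164. miR156, which targets SPL factors and holds back phase change, had 2614 and 1098 RPM in ktn1, against 3428 and 3150 RPM in WT; the log2 change was -0.96 (SE 0.71, adjusted p = 0.611, limma), -1.58 without ktn1 replicate 1 and -0.33 without replicate 2. miR164, which targets NAC factors such as CUC2, had 688 and 1677 RPM in ktn1, against 3308 and 1806 RPM in WT, with a gap between genotypes much smaller than the spread within either. miR159 had 135041 and 133598 RPM in ktn1, against 113817 and 95742 RPM in WT; its log2 change of 0.36 (SE 0.29, adjusted p = 0.611, limma) turned to -0.084 with equal sums without miR165 and miR166. miR319, which targets TCP factors, had 11680 and 30288 RPM in ktn1, against 35354 and 28413 RPM in WT, and overlapped through ktn1 replicate 2.

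**Figure D4:**
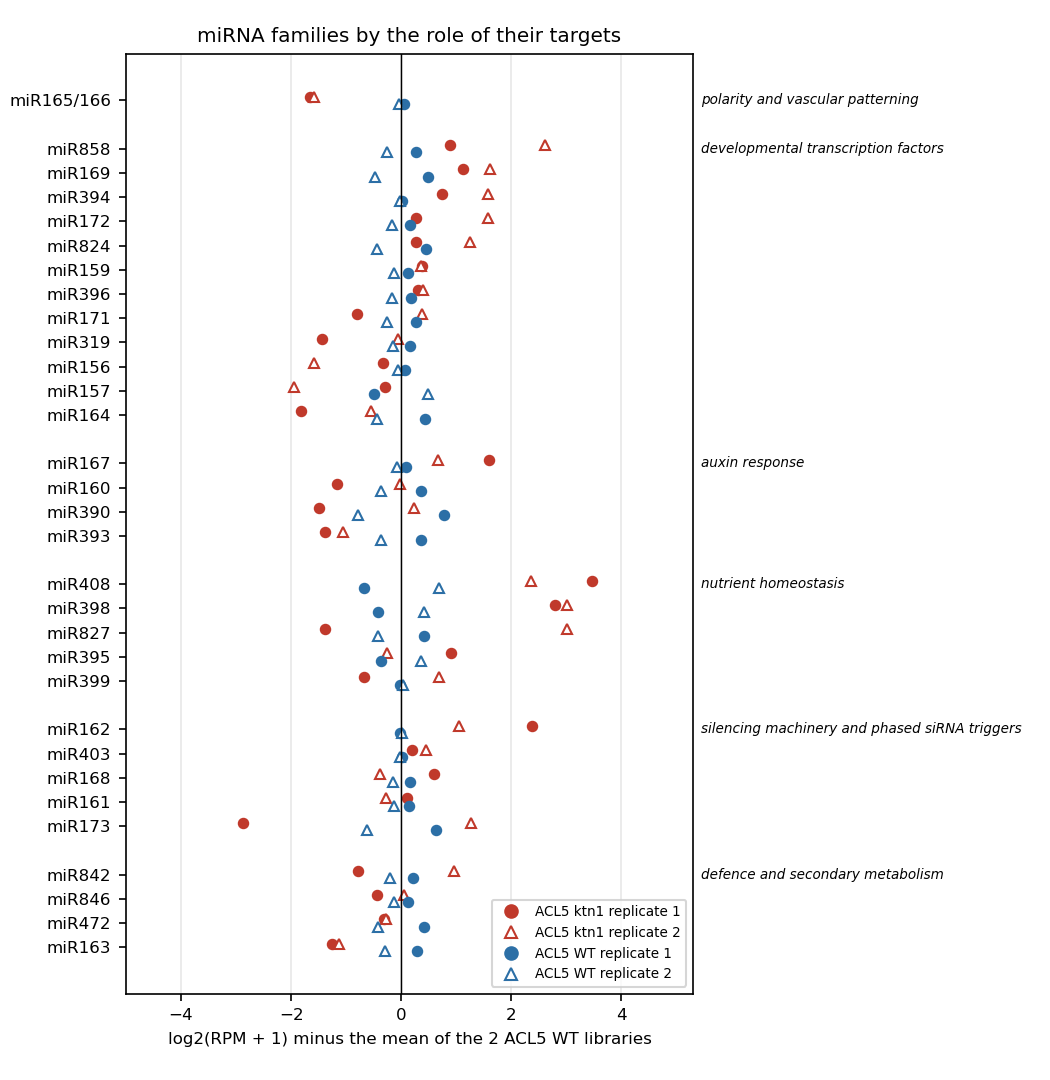
Tested families with known targets, grouped by the role of those targets and ordered by change within each group; the horizontal axis is log2(RPM + 1) of each library minus the mean of the 2 ACL5 WT libraries. The 2 ktn1 points of miR165/miR166, miR398 and miR163 lie close together and away from WT, and those of miR408 and miR162 lie apart but both above WT, whereas those of miR827 and miR173 lie on opposite sides of it.

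Auxin-related families went in both directions. miR167, which targets ARF6 and ARF8, was read almost wholly from miR167c-3p, at 2278 and 1114 RPM in ktn1, against 739 and 665 RPM in WT (log2 change 1.18, SE 0.56, adjusted p = 0.328, limma; 0.67 without ktn1 replicate 1 and 1.70 without replicate 2). The usual guide miR167a-5p/miR167b was rarer and overlapped, at 34.1 and 60.9 RPM in ktn1 and 55.0 and 45.1 RPM in WT. miR393 targets the TIR1 and AFB auxin receptors. Summed as a family it had 5.39 and 6.94 RPM in ktn1, against 20.5 and 11.9 RPM in WT. Its log2 change was -1.22 (SE 0.90, adjusted p = 0.611, limma). Most of this sum is the 3p arm miR393b-3p. The 5p entry miR393a-5p/miR393b-5p went the other way on few reads, with 11 and 4 in ktn1 and 2 and 0 in WT. The miR393 family reached 10 RPM only in WT libraries, so its place among the tested families is not independent of that filter. miR160, which targets ARF10, ARF16 and ARF17, and miR390, which triggers TAS3, overlapped. Of the 4 families tested, 1 lay above, 1 below and 2 overlapped, where 32.7% of all tested families lay above and 21.8% below. Of these 4, 0 passed limma (0 at an unadjusted p under 0.05), and the median log2 change was -0.61.

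Among miRNAs of defence and secondary metabolism, miR163 (AT1G66725), which targets SAM-dependent methyltransferases, had 1951 and 2142 RPM in ktn1, against 5737 and 3831 RPM in WT. The ktn1 replicates lay close to each other and below both WT libraries (log2 change -1.20, SE 0.42, adjusted p = 0.178, limma, as an entry). With equal sums without miR165 and miR166 this entry passed. miR846, which targets jacalin lectins, overlapped, at 3059 and 4278 RPM in ktn1 and 4536 and 3793 RPM in WT. miR825 had 47 and 73 reads (5.17 and 7.79 RPM) in ktn1 and 2 and 0 reads in WT, below the level needed for the test. Of the 4 tested families 0 lay above, 1 below and 3 overlapped, where 32.7% of all tested families lay above and 21.8% below. Of these 4, 0 passed limma (0 at an unadjusted p under 0.05), and the median log2 change was -0.24.

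The 74 families outside these groups, mostly young and specific to few species, include the only one to rise past the threshold. miR3932b-5p (AT4G06130), whose target is not given here, had 55.2 and 64.5 RPM in ktn1, against 1.44 and 1.72 RPM in WT, from 10 reads in each WT library. The log2 change was 4.56 (SE 0.68, adjusted p = 0.0084, limma); it missed the threshold without WT replicate 1 (adjusted p = 0.115), WT replicate 2 (0.0998) or ktn1 replicate 2 (0.0595), at changes of 4.48, 4.64 and 4.45. In the EN7 line it had 17.8 and 13.4 RPM in ktn1, against 2.29 and 0 RPM in WT, and the difference between lines was 1.37 (adjusted p = 0.970, limma interaction). miR3932b-5p reached the 10 RPM needed for the test only in ktn1 libraries, so its call is not independent of that filter. Of the 24 tested families in this group 7 lay above WT, 7 below and 10 overlapped, with a median log2 change of 0.0056. Over all tested families 32.7% lay above and 21.8% below.

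Others with no overlap and large differences were miR5996 and miR780.1. miR5996 had 18.2 and 90.2 RPM in ktn1, against 8.93 and 7.75 RPM in WT. miR780.1 had 18.6 and 23.4 RPM in ktn1, against 5.19 and 7.06 RPM in WT. It reached 10 RPM only in the ACL5 ktn1 libraries, so its place among the tested entries is not independent of that filter. The other entry of this family, miR780.2, overlapped, at 20.3 and 39.1 RPM in ktn1 and 18.1 and 24.6 RPM in WT. On the lower side, miR5650 had 30.7 and 62.0 RPM in ktn1, against 187 and 196 RPM in WT (log2 change -2.11, SE 0.80, adjusted p = 0.216, limma). miR8182 had 3.96 and 3.95 RPM in ktn1, against 18.7 and 14.3 RPM in WT (log2 change -1.81, SE 0.52, adjusted p = 0.127, limma). miR3434-5p had 0.989 and 1.07 RPM in ktn1, against 9.07 and 17.1 RPM in WT. It reached 10 RPM only in WT libraries, so its place among the tested entries is not independent of that filter. In EN7 miR3434-5p had 0.0769 and 0 RPM in ktn1, against 14.5 and 0.144 RPM in WT. miR158a-3p, an abundant Brassicaceae miRNA, had 50248 and 59640 RPM in ktn1, against 43838 and 32692 RPM in WT (log2 change 0.53, SE 0.40, adjusted p = 0.621, limma).

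At the limit of detection, 11 entries had at least 3 reads in both ktn1 libraries and fewer in both WT libraries, and 6 had the reverse. The ktn1 set includes miR397a and miR825 described above, and the WT set includes miR5634, at 2 and 1 reads in ktn1 and 13 and 21 reads in WT. The ktn1 libraries were read more deeply, so the floor of 3 reads was lower there, at 0.330 and 0.320 RPM, than in WT, at 0.432 and 0.517 RPM.

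The share of the rarer arm among the reads of both arms does not depend on library scaling. In 27 precursors or precursor groups both arms were listed and held at least 10 RPM together in each ACL5 library. In 10 of these an entry also holds products of further loci with the same mature sequence, as where miR168b-3p is set against the shared 5p of miR168a and miR168b, so that the share is not that of 1 precursor alone. The rarer arm over the 4 libraries, the 5p arm in 15 and the 3p arm in 12, was called the minor arm. Its median share of the pair was 1.56% and 1.17% in ktn1 and 3.08% and 3.53% in WT. Both ktn1 shares were below both WT shares in 7 pairs (25.9%) and above in 2 (7.41%), of which miR159b rests on shares of nearly 0; the other 18 overlapped.

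Those 7 pairs were miR162a/b, miR168b, miR398a, miR398b/c, miR403, miR408 and miR472. As above, miR398a is not counted as a change separate from miR398b/c. For miR168b the minor 3p arm made up 1.49% and 1.99% in ktn1, against 16.6% and 28.9% in WT, because miR168b-3p itself was low, at 10.4 and 7.15 RPM in ktn1 and 85.99 and 119 RPM in WT. For miR162 the 5p arm made up 0.568% and 0.860% in ktn1, against 2.22% and 2.22% in WT, while its RPM overlapped (262.4 and 159.2 in ktn1, 194.6 and 199.8 in WT). For miR398b/c the 5p arm made up 0.0138% and 0.0034% in ktn1, against 0.162% and 0.275% in WT. For miR398b/c and miR398a the RPM of the 5p arm itself was lower in both ktn1 libraries, but on few reads. miR398b-5p/miR398c-5p had 27 and 8 reads in ktn1, against 26 and 66 reads in WT. miR398a-5p had 0 and 2 reads in ktn1, under the floor of 3 reads, against 13 and 6 reads in WT. For miR408 and miR162 the RPM of the 5p arm overlapped between genotypes. miR408-5p was above both WT libraries in ktn1 replicate 1 (1215 RPM) and below both in replicate 2 (97.5 RPM), against 99.5 and 317 RPM in WT.

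By share, ktn1 replicate 2 had the lowest minor arm of the 4 libraries in 10 of 27 pairs and ktn1 replicate 1 in 9, against 4 in each WT library. ktn1 replicate 1 was below both WT libraries in 11 pairs and above both in 10. By RPM the minor arm was lowest in ktn1 replicate 2 in 14 pairs and in replicate 1 in 7, and the major arm in 5 and in 9. For miR165a the 5p arm made up 1.17% in ktn1 replicate 2 and 9.44% in replicate 1, against 6.59% and 10.5% in WT. For miR396a, whose 3p arm is the more abundant in 3 libraries, the 5p arm made up 92.1% in ktn1 replicate 2 and 17.03% in replicate 1, against 34.0% and 29.4% in WT. The low passenger values of ktn1 in the pooled changes of miR165a-5p (-2.89, -4.45 without ktn1 replicate 1 and -1.32 without replicate 2) and miR166a-5p/miR166b-5p (-2.61, -3.57 without replicate 1 and -1.65 without replicate 2) rest in part on this library.

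**Figure D5:**
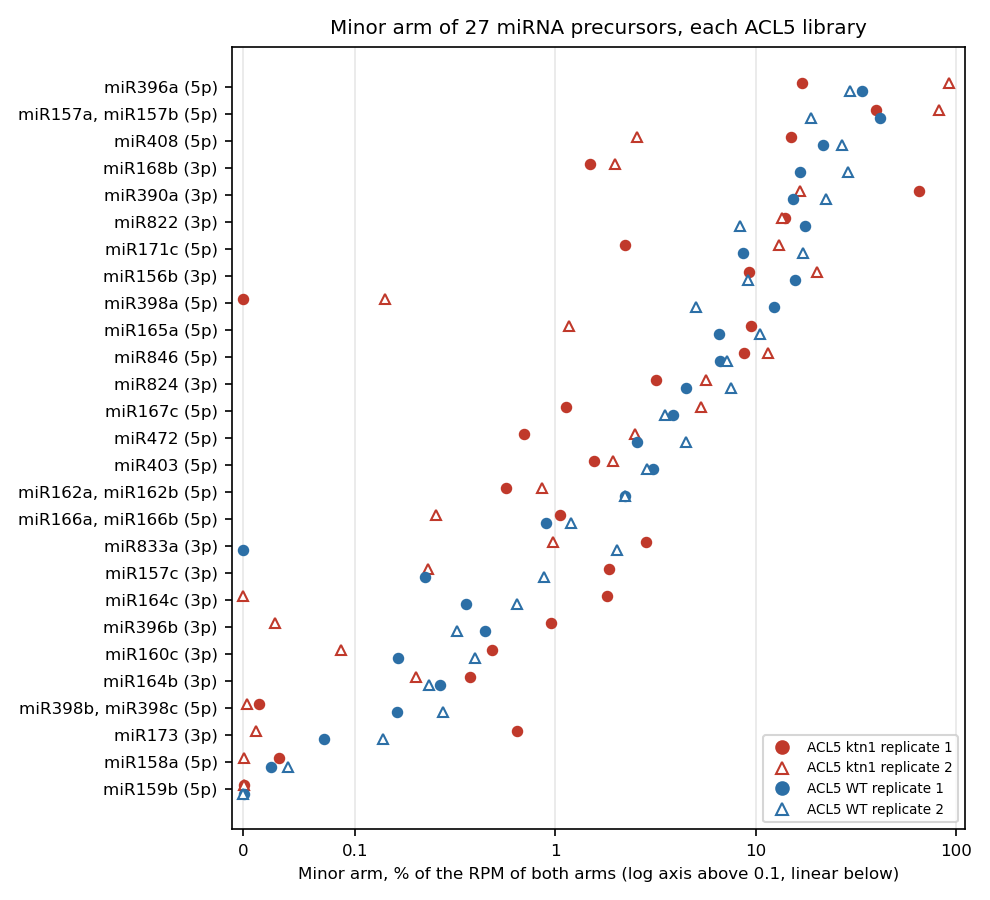
Share of the minor arm in the RPM of both arms for 27 precursors (horizontal axis in %, logarithmic above 0.1 and linear below) in each ACL5 library, ordered by the WT mean; the minor arm is named in brackets. Both ktn1 points lie left of both WT points for 7 precursors, among them miR168b and miR162a/b. The lowest share is that of ktn1 replicate 2 in 10 precursors and of ktn1 replicate 1 in 9.

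Of the 86 entries, 2 (2.33%) changed differently in ACL5 and EN7 past the threshold, the guide strands of miR166 (-3.0, adjusted p = 0.00023) and miR165 (-3.34, adjusted p = 0.00053, limma interaction). The number was 4 without ktn1 replicate 2 of ACL5 and 3 without EN7 WT replicate 2, where miR162a-3p/miR162b-3p also passed (3.44, adjusted p = 0.043). No entry outside miR165/miR166 passed with all libraries. Of the 55 families 1 passed (1.82%), miR165/miR166.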

How the data were processed

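Small RNA bound to GFP-AGO1 was sequenced from roots, per the labels' protocols, with a NEBNext small RNA kit. The authors deposited 1 RPM table per library; cutadapt, Bowtie and TAIR10 are named in the submitters' processing notes, while the counter, miRNA annotation and reads behind the denominator are not given in the sources used here. How reads that fit near-identical miRNAs (miR165 and miR166, miR159a and miR159b) were shared is likewise not given, so such entries are uncertain as single values. In each table the lowest value above 0 was taken as 1 read; every other value was then a whole number of reads (within 0.01), which gave denominators of 9096290 and 9366639 reads for ACL5 ktn1 and 6942889 and 5804745 for ACL5 WT. No count test was run, because too few low values were available to check this recovery. The floors allow for counting error alone, because amplified copies of a molecule were not separated.

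Values were analysed as log2(RPM + 1), on which changes of low miRNAs are understated. The 8 AGO1 libraries were fitted together (limma 3.58.1, R 4.3.3, lmFit and eBayes with trend, two-sided, threshold 0.05), with entries missing from the EN7 tables taken as 0. Tables and figures used Python 3.11.15, pandas 2.3.3 and matplotlib 3.10.9. The fit was tested on simulated data with large changes, levels raised above the measured ones and the same spread in all groups. That test does not cover rare entries, smaller changes or the unequal replicate spread of these libraries. Named entries are those past the threshold, the 10 most abundant, the 8 largest tested changes without overlap on each side, miR165 and miR166, and the top entry of each list; other named miRNAs were chosen after their values were seen. Members and functional lists were chosen with earlier results of these data known. Mature sequences were not used here.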

Additional observations from a re-analysis of the deposited data

Results flagged for a closer look

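Among the named entries and families, 7 results had both ktn1 libraries outside both WT libraries on opposite sides in ACL5 and EN7. miR162 and miR165/miR166 are counted there both as entries and as families. The difference, ACL5 minus EN7, passed limma's interaction test for the miR166 guide (-3.0), the miR165 guide (-3.34) and the family of both (-3.11, adjusted p = 3.6e-05). For 4 others both ktn1 libraries lay above both WT libraries in ACL5 and below both in EN7, without an interaction past the threshold: miR162a-3p/miR162b-3p (2.72, adjusted p = 0.262), the miR162 family (2.69, adjusted p = 0.266), miR780.1 (2.20, adjusted p = 0.379) and miR167c-3p (1.77, adjusted p = 0.574). For miR780.1 the EN7 side rests on few reads, at 0.308 and 0 RPM in ktn1 and 1.02 and 0.432 RPM in WT, near the floor of 3 reads. miR780.1 also passed the 10 RPM filter only through the ACL5 ktn1 libraries, where it is high. Tested entries outside the named ones can meet the same rule, and miR845a is among them. In ACL5 miR845a had 107 and 129 RPM in ktn1, against 72.0 and 62.2 RPM in WT. In EN7 it had 56.1 and 54.3 RPM in ktn1, against 206 and 80.0 RPM in WT. No group here holds enough libraries for a test of single outlying libraries.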

How the results depend on the processing

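With 2 libraries a group, the counts of calls depended on the settings and the direction of most named changes did not: set against the alternatives, named values kept direction and side of the threshold 784 times, gained a call 31 times, lost one 21 times and reversed 25 times. The 4 entries called became 2 with a pseudocount of 0.1, without the trend or with equal medians, and 7 without the filter, with equal sums without miR165 and miR166 or with the ACL5 libraries alone; leaving out 1 library gave 1 to 9. The 2 families became 1 with a pseudocount of 0.1, without the trend or with equal medians, and 6 with the ACL5 libraries alone; leaving out 1 library gave 1 to 7. The 2 entries that differed between lines became 0 without the trend (8 at an unadjusted p under 0.05), and 2 to 4 with 1 library left out. Without the filter 48 entries lay above and 44 below. Equal medians gave 35 and 13, and equal sums without miR165 and miR166 gave 33 below. Leaving out 1 ACL5 library, which can only add entries to these counts, gave 24 to 38 above and 22 to 37 below. With equal sums without miR165 and miR166 the changes of miR159a (-0.039), miR159b-3p (-0.18) and the families miR159 (-0.084), miR395 (-0.12) and miR399 (-0.44; -0.24 with equal miRNA sums) reversed, and with equal medians those of miR161.1 (0.35), miR846-3p (0.18) and the families miR161 (0.35) and miR846 (0.23). Leaving out 1 library gave -0.27 to 0.11 for miR161.1 and for its family, -0.44 to 0.045 for the miR846 family, -0.25 to 0.91 for miR395, -0.68 to 0.69 for miR399 and -1.38 to 3.02 for miR827. The difference between lines reversed for miR166e-5p with a pseudocount of 10 (-0.19) and for miR398b-3p/miR398c-3p with equal sums without miR165 and miR166 (-0.18) or equal medians (-0.023); for the second, leaving out 1 library gave -1.32 to 1.82. The cause of these was not tested. Replicate numbers are shared between genotypes, but the deviations of ktn1 and WT libraries with 1 number correlated at -0.48 over 86 entries, so the numbers do not pair them; with the replicate block 4 entries, 3 families (miR398 added, adjusted p = 0.024, limma) and 2 differences between lines were called. The crossed pairing, chosen after the data were seen, called 4, 2 and 2. The edgeR and DESeq2 tests planned on recovered reads were not run. Depth limits the values near 3 reads.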
